A study of Mus musculus with 4 samples.

Results

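Genes of the heterotrimeric G protein machinery were read on 4 single-colour microarrays of mouse dorsal raphe, a midline cell group of the brainstem whose serotonergic neurons project to the forebrain. The members were every gene whose symbol in the probe table of the array names a G protein subunit (Gna, Gnb, Gng), a regulator of G protein signalling (Rgs), an adenylyl cyclase (Adcy), an inward rectifier potassium channel (Kcnj), a G protein-coupled receptor kinase (Grk, in the table also Adrbk) or an arrestin (Arrb). The symbols matched 78 probes of 78 genes, out of 16383 genes with a named probe. The table's Adrbk1 and Adrbk2 are given under their current symbols, Grk2 and Grk3. The rule also takes in relatives that are not themselves part of the cascade in raphe neurons, such as the photoreceptor and taste subunits (Gnat1, Gnat2, Gnat3, Gngt1, Gngt2), the WD-repeat protein gene Gnb1l and the RGS anchor gene Rgs9bp.

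Each array carried RNA pooled from 5 male mice of C57BL/6J background aged 10 weeks, and the 4 groups had 1 array each. They were wild-type mice without stress (non-stressed WT), wild-type mice after forced swimming (stressed WT), mice lacking the dopamine D2 receptor after forced swimming (stressed D2R-KO) and mice lacking the long form of that receptor after forced swimming (stressed D2LR-KO). The mice swam for 6 min daily over 4 days and the raphe was collected 12 h later. No array of a non-stressed knockout was analysed here, so a knockout differs from non-stressed WT by stress and genotype at once. With pooled animals and 1 array per group no difference could be tested, no value has a replicate error, and precision is limited by how few arrays there are.

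G protein-coupled receptors act through a Galpha subunit and a Gbeta-Ggamma pair. Galpha i/o subunits, which serotonin 1A and dopamine D2 receptors use, lower the activity of adenylyl cyclases, while the freed Gbeta-Ggamma pair opens GIRK channels (Kcnj3, Kcnj5, Kcnj6, Kcnj9) and so quiets the neuron. RGS proteins speed the return of Galpha to its resting state, and receptor kinases with arrestins switch the receptor off. In the dorsal raphe this cascade is the route of serotonin autoinhibition.

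Levels are given as the authors' deposited intensities, which are linear and have an array median of 25, always in the order of non-stressed WT, then stressed WT, then D2R-KO, then D2LR-KO. Levels of different probes are not compared with each other. Differences are on the log2(signal + 50) scale after quantile normalization of the scanner's spot medians, which understates the differences of dim genes. The words higher and lower count members with a difference of 1.5-fold or more (0.58 on the log2 scale) whose spot was detected on 1 or both arrays of the comparison. Of the 78 members, 71 were detected on all 4 arrays, 4 on some (Gnat3, Rgs9bp, Kcnj5, Kcnj1) and 3 on none (Kcnj6, Kcnj15, Grk1).

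The stressed WT array stood apart from the other 3 across the whole array, which touches each result that rests on it. Among the 3807 genes (24.0% of 15875 detected) whose signal spanned at least 1.5-fold over the 4 arrays, stressed WT lay farthest from the other 3 in 84.3%. Its bright genes were also dimmer as a whole. With each array scaled to 1 median, genes in the brightest of 3 equal classes had a median log2 difference of -0.43 between stressed and non-stressed WT, against -0.02 after quantile normalization. Between 2 arrays, log2 differences of repeated positive control spots had SDs from 0.0966 to 0.227, a spread that holds spot noise but no variation of mice or labelling. Tph2, the neuronal serotonin synthesis enzyme and a marker of serotonergic neurons, was detected on all 4 arrays, with intensities of 31.4, 10.7, 264.6 and 151.5. The 11 serotonergic markers summed to 2636, 2197, 3765 and 3927, most of it from Ddc (1562.6, 1119.0, 1735.3, 2253.8) and Slc18a2 (702.5, 718.1, 1197.8, 1132.7). Against non-stressed WT, 4 were 1.5-fold higher in D2R-KO (Tph2, Slc6a4, Gchfr, Gata3) and 3 in D2LR-KO (Tph2, Gchfr, Slc6a4). Of all genes, 0.609% and 0.751% were. None was lower in either knockout, and Tph2 alone was lower in stressed WT. Markers of choroid plexus and ependyma, 7 genes all detected, summed to 13170, 5856, 123.3 and 292.4, nearly all of it from Ttr (12884.0, 5720.2, 20.3, 193.1). Of these 7, 5 were 1.5-fold lower than in non-stressed WT on each stressed array, Otx2 and Foxj1 were not, and only Ttr passed 1.5-fold against stressed WT in either knockout. The part of such tissue differences in the values below was not tested. In such bulk RNA, fewer cells of a type and less RNA per cell cannot be told apart.

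Of the 75 detected members, 21 (28.0%) spanned at least 1.5-fold over the 4 arrays, close to the 24.0% of all genes. Stressed WT lay farthest from the other 3 arrays in 15 of these 21, above them in 11 and below them in 4. Stressed D2LR-KO lay farthest in 3 (Gnao1, Adcy9, Kcnj8), stressed D2R-KO in 2 (Gng10, Arrb1) and non-stressed WT in 1 (Gng11). Another 14 members varied by less than 0.1 on the log2 scale.

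**Figure D1:**
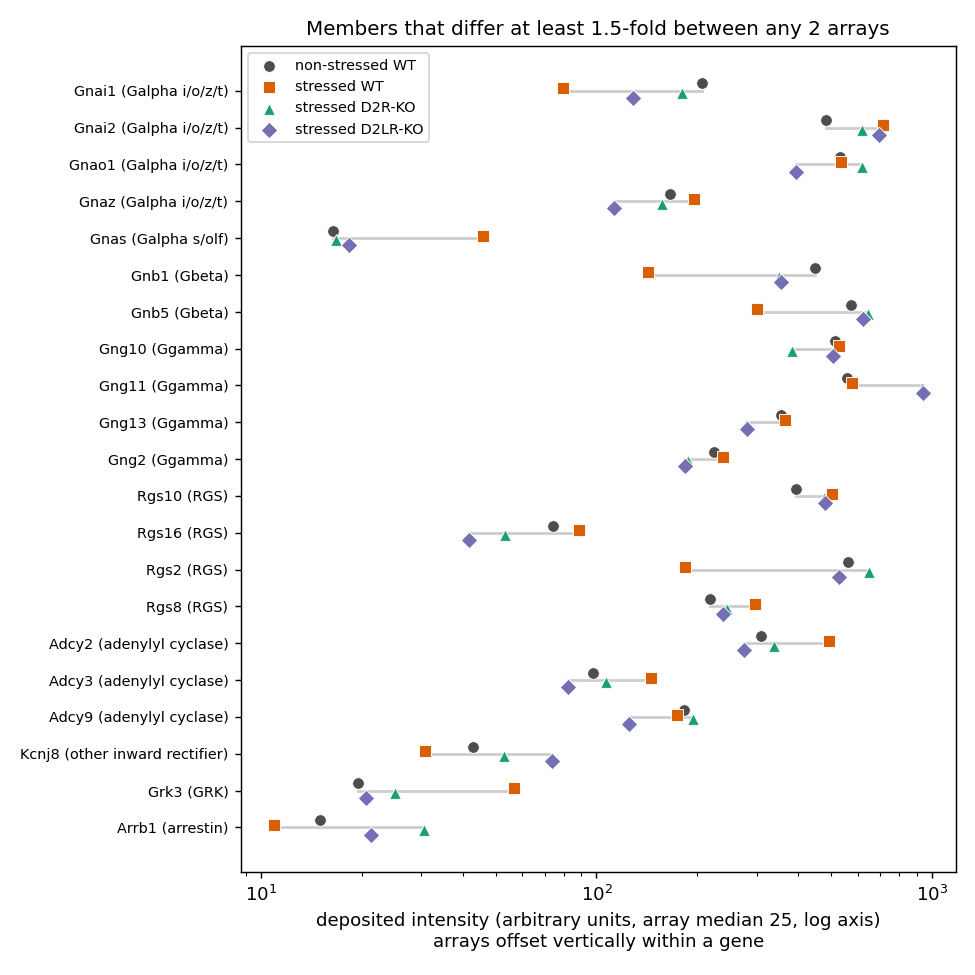
Deposited intensity (arbitrary units, log axis) of the 21 members that spanned at least 1.5-fold on the normalized scale, 1 point per array; the grey line joins the lowest and the highest array. Stressed WT is the lowest point for Rgs2, Gnb1, Gnai1 and Gnb5 and the highest for Grk3, Gnas and Adcy2, and both knockouts lie above both WT arrays for Gng11; positions of different genes on the axis are not comparable.

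The upstream sequences of 3 members that were lower on the stressed WT array are shown because 2 of them, Rgs2 and Gnb1, had the largest differences of the whole set, and Gnai1 is a Galpha i subunit. Each line holds the 250 bases before 1 transcript start of the gene in RefSeq (GRCm38), 5′ to 3′ on the gene's strand. Capitals mark TGACG, the core of the cAMP response element, or its reverse complement CGTCA.
Rgs2: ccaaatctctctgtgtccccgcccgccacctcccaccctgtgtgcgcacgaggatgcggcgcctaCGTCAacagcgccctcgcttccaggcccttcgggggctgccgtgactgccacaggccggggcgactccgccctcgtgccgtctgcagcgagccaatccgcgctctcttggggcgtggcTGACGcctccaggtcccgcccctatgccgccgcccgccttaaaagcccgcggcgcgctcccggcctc
Gnb1: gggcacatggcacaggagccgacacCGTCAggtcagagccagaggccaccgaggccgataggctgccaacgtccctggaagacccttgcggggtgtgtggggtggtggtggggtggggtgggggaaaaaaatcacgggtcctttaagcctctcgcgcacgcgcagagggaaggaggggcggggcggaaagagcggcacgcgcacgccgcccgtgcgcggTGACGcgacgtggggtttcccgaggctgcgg
Gnai1: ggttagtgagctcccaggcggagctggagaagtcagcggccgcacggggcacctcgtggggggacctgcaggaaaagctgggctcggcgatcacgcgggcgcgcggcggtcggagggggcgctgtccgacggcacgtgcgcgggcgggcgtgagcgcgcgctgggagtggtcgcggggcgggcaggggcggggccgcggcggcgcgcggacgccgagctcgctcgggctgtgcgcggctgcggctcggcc
The Rgs2 window is chr1:144004150-144004399 on the minus strand, with the core beginning 185 and 67 bases before the start. The Gnb1 window is chr4:155491111-155491360 on the plus strand, with the core beginning 225 and 31 bases before the start. Another annotated start of Gnb1 lies inside its window, upstream of the core nearest the end, so that core is also within the annotated gene. The Gnai1 window is chr5:18360414-18360663 on the minus strand and holds neither string. Over both strands, 17.8% of 32851 RefSeq windows of this length held the core at least once and 3.9% held it more than once. Among 77 windows of the 57 members in the table, 15 (19.5%) held it and 4 (5.19%) held it more than once. The full palindrome TGACGTCA was in 0 of them against 1.55% of all windows. Gnb5, also lower on the stressed WT array, held no core. Of the members higher there, Gnas and Rgs8 held it in some windows, Rgs10, Adcy2 and Adcy3 in none, and Gnai2 and Grk3 had no window. The core thus did not part lower from higher members. A match is a description of the letters and does not show a working site.

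The WT arrays address the difference between swum and unswum mice of 1 genotype. Of 75 members compared, 7 were at least 1.5-fold higher, where 7.35% of all genes were, and 4 were at least 1.5-fold lower, where 8.21% were. Either direction took in 15.6% of all genes, and 2 members (Gnb1, Rgs2) and 3.71% of all genes passed 2-fold. These shares, 9.33% and 5.33%, lie near those of all genes, and the members' median was 0.04 against 0.00 for all genes. The split depended on scaling, with 2 higher and 6 lower after median scaling, where 2.69% of all genes were higher and 16.5% lower. It was 8 higher and 9 lower, or 3 and 4, from the deposited values with 1 or 25 added. The named differences below are therefore of single genes, not of the cascade as a whole.

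Among the Galpha i/o subunits, Gnai1 and Gnai2 lay in opposite directions. Gnai1 had intensities of 206.7, 79.4, 180.1 and 128.8 and was 1.98-fold lower in stressed than in non-stressed WT, with the 2 knockout arrays in between. Under 7 other ways of computing the values, that log2 difference stayed between -1.37 and -0.81. For members 1 of the 7, the mean of a gene's probes, repeats the value used here, since 78 probes served 78 genes. Gnai2 had 482.7, 715.1, 618.6 and 694.7 and was 1.83-fold higher in stressed WT, with the non-stressed array lowest. That difference was 0.34 on the log2 scale after median scaling and 2.07 after local background correction, which takes each spot's own surroundings as its background, so its size is not settled. Gnai3, at 202.7, 143.8, 222.3 and 199.5, differed by -0.22. Gnao1, which encodes the most abundant Galpha of brain membranes, had 532.2, 537.4, 620.5 and 394.0, and Gnaz, the form insensitive to pertussis toxin, had 165.2, 195.8, 157.1 and 112.5. Stressed exceeded non-stressed WT by 0.32 (Gnao1) and 0.46 (Gnaz) on the log2 scale, and the D2LR-KO array was the lowest of the 4 for both. The transducin genes Gnat1, Gnat2 and Gnat3 did not exceed an intensity of 4.3 on any array.

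Of the stimulatory subunits, Gnas, which couples receptors to cyclase activation, had intensities of 16.4, 46.0, 16.7 and 18.3. Only the stressed WT array was high, by 1.73-fold on the normalized scale and 2.81-fold in deposited intensity over non-stressed WT. Local background correction gave -0.01, and which of the several transcripts of the Gnas locus the probe reads is not known here. Gnal, the olfactory and striatal form, had 11, 4.2, 10.8 and 9.8 and was lowest on the stressed WT array by 0.30 on the log2 scale.

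None of the 6 subunits of the Galpha q and Galpha 12/13 classes passed 1.5-fold in any of the 6 comparisons on the normalized scale. Gna13 came nearest, with 110.0, 68.0, 116.9 and 127.8. It was 1.47-fold higher in D2LR-KO than in stressed WT. Gnaq, the main activator of phospholipase C beta, had 37.3, 42.1, 25.7 and 24.5, so both knockouts lay below both WT arrays by 0.28 to 0.45 on the log2 scale.

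Gbeta genes carried the largest member difference of this comparison. Gnb1, a Gbeta partner of most Galpha subunits, had intensities of 447.3, 142.2, 350.1 and 354.1 and was 2.43-fold lower in stressed WT, below every other array. Local background correction reversed this to 0.91, and the difference lay between -1.66 and -1.20 in the other 6 computations. Gnb5, the divergent Gbeta that pairs with the R7 class of RGS proteins, had 574.8, 301.3, 644.5 and 622.4, so that stressed WT alone was low, by 0.59 on the log2 scale and 1.91-fold in deposited intensity. Gnb2 had 1035.7, 879.4, 1049.3 and 972.2 and differed by 0.13. Gnb4 had 51.6, 37.4, 56.0 and 67.0, a difference of -0.23. None of the 10 Ggamma genes passed 1.5-fold between the WT arrays. Gng4 had 34.8, 19.9, 28.3 and 23.4, at -0.39, and Gng8 79.2, 88.7, 90.3 and 93.3.

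The R7 partners of Gnb5 varied less, and not in 1 direction. Rgs7, an R7 member of brain, had 310.3, 281.5, 307.0 and 283.4, a log2 difference of 0.16 between the WT arrays. Rgs9 had 11.3, 14.5, 13.1 and 11.6, and Rgs7bp, which anchors R7 complexes at the membrane and lies outside the symbol rule, had 1038.6, 1011.6, 1205.8 and 941.6. Rgs11 had 29.4, 35.4, 57.3 and 43.2, with the D2R-KO array highest. Rgs6 had 12.1, 8.7, 20.2 and 23.3, lowest on stressed WT as Gnb5 was, by 0.16 on the log2 scale, and both knockouts lay above both WT arrays. Against non-stressed WT these were log2 differences of 0.52 (Rgs11) and 0.25 (Rgs6) in D2R-KO and 0.31 and 0.35 in D2LR-KO, under 1.5-fold.

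Among the other RGS genes, Rgs2 differed most. Rgs2, which favours Galpha q and is switched on by cAMP and neuronal activity, had intensities of 563.8, 183.6, 650.7 and 526.9. The stressed WT array was far below the other 3, 2.40-fold below non-stressed WT on the normalized scale and 3.07-fold in deposited intensity. Its log2 difference lay between -1.67 and -1.18 in 7 other computations, of which the mean of a gene's probes was no separate check. It kept its direction and its size past 1.5-fold in each. Rgs8 (217.3, 295.9, 244.1, 237.6) and Rgs10 (393.0, 503.8, 475.3, 479.9), both of which act on Galpha i/o, were 1.61-fold and 1.58-fold higher in stressed WT. After median scaling those differences were 0.22 and 0.14 on the log2 scale. Rgs4, a Galpha i/o and q regulator of neurons, had 563.8, 486.9, 507.7 and 689.8, a difference of 0.10. Rgs16 had 74.2, 88.5, 53.2 and 41.8, Rgs17 560.3, 545.2, 788.9 and 551.4, and Rgs19 96.5, 88.9, 78.6 and 96.0, none of them past 1.5-fold between the WT arrays. Of 20 RGS-named members, 2 were higher and 1 lower.

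Of 9 adenylyl cyclases, Adcy2 and Adcy3 were higher in stressed WT. Adcy2, which Gbeta-Ggamma can stimulate together with Galpha s, had 309.2, 492.0, 337.7 and 276.1, a 1.92-fold difference between the WT arrays. Adcy3 had 97.6, 145.2, 107.0 and 82.3, a 1.59-fold difference. Both were highest on stressed WT and lowest on D2LR-KO, and after median scaling the differences between the WT arrays were 0.43 and 0.31 on the log2 scale. Adcy8, a calcium-stimulated cyclase, had 33.3, 22.1, 43.4 and 39.7 and was lowest on stressed WT, by 0.29. Adcy5, inhibited by Galpha i and rich in striatum, had 59.0, 69.6, 66.3 and 55.8, a difference of 0.29. Adcy9 had 182.8, 173.6, 193.7 and 125.0, with only D2LR-KO low. Adcy7 had 11.2, 16.2, 14.1 and 10.2. Adcy1 (1.9, 4.0, 1.8, 1.4), Adcy4 (4.5, 5.1, 6.1, 5.2) and Adcy6 (2.8, 2.9, 2.5, 1.9) gave little signal on any array.

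On the normalized scale the GIRK channel genes gave no difference of 1.5-fold in any comparison. Kcnj3, the subunit found in most neuronal GIRK channels, had 21.1, 10.5, 15.2 and 11.8, highest in non-stressed WT and 0.38 lower on the log2 scale in stressed WT. In deposited intensity this was 2.01-fold. An offset of 16, or the deposited values with 1 added, put Kcnj3 past 1.5-fold lower in stressed WT. The deposited values with 1 added did so for D2LR-KO against non-stressed WT too. Kcnj9 had 58.2, 78.1, 69.5 and 71.0, lowest in non-stressed WT and 0.43 higher in stressed WT. Local background correction reversed that to -0.54, and put Kcnj9 past 1.5-fold lower in D2R-KO than in non-stressed WT. Kcnj6 was not detected on any array, and Kcnj5 was detected on 3 with an intensity of at most 1.9. Any difference in these 2 genes was thus not measurable with these probes. Of the 8 other inward rectifiers, only Kcnj8 passed 1.5-fold in any comparison on the normalized scale. Kcnj16, a partner of the glial channel Kcnj10, had 259.7, 199.0, 321.1 and 267.3, and Kcnj12 had 45.9, 35.6, 61.8 and 52.3, both lowest in stressed WT. Kcnj10 itself had 5.7, 6.5, 4.2 and 2.7.

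Among receptor kinases and arrestins, Grk3 was 1.89-fold higher in stressed WT. This kinase, which binds Gbeta-Ggamma and phosphorylates active receptors, had intensities of 19.5, 56.9, 25 and 20.5, so stressed WT alone was high, 2.92-fold in deposited intensity. The difference stayed past 1.5-fold in 7 other computations, with a lowest log2 value of 0.60. Its close relative Grk2 had 32.6, 19.9, 42.6 and 37.8 and was lowest where Grk3 was highest, by 0.33 on the log2 scale. Arrb1 had 15, 10.9, 30.6 and 21.2, and Arrb2 69.4, 62.5, 79.6 and 60.7, differences of -0.17 and 0.01 between the WT arrays. Grk1, a photoreceptor kinase, was not detected.

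**Figure D2:**
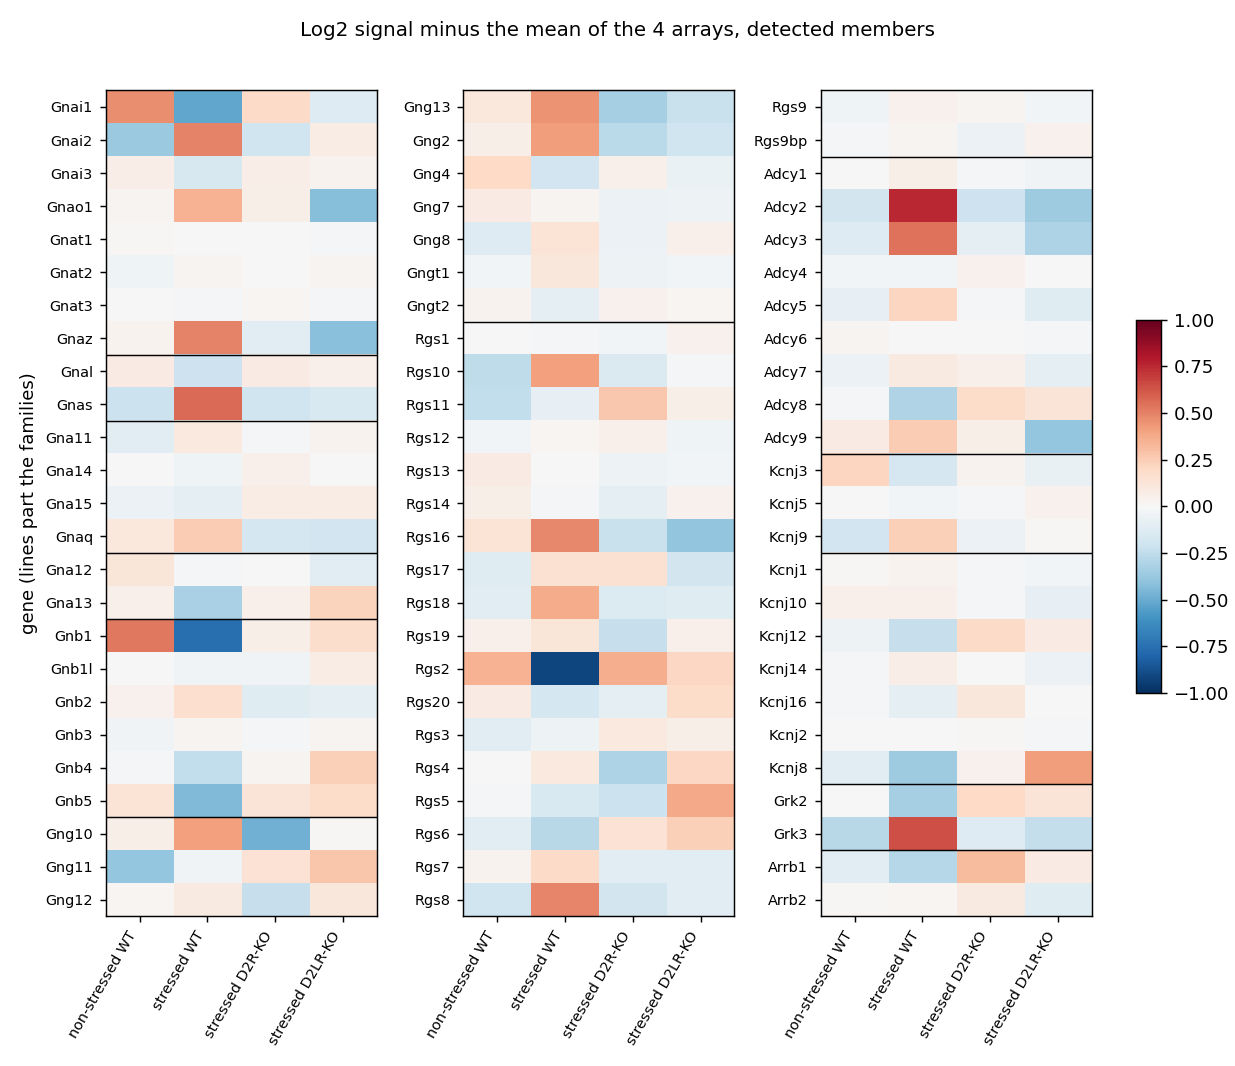
Log2 signal minus the mean of the 4 arrays for the 75 detected members (rows, with lines between families; red higher, blue lower, 1 column per array). The strongest colours are in the stressed WT column, blue for Rgs2, Gnb1 and Gnai1 and red for Adcy2 and Grk3, while most Gna, Kcnj and Adcy rows are pale.

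**Figure D3:**
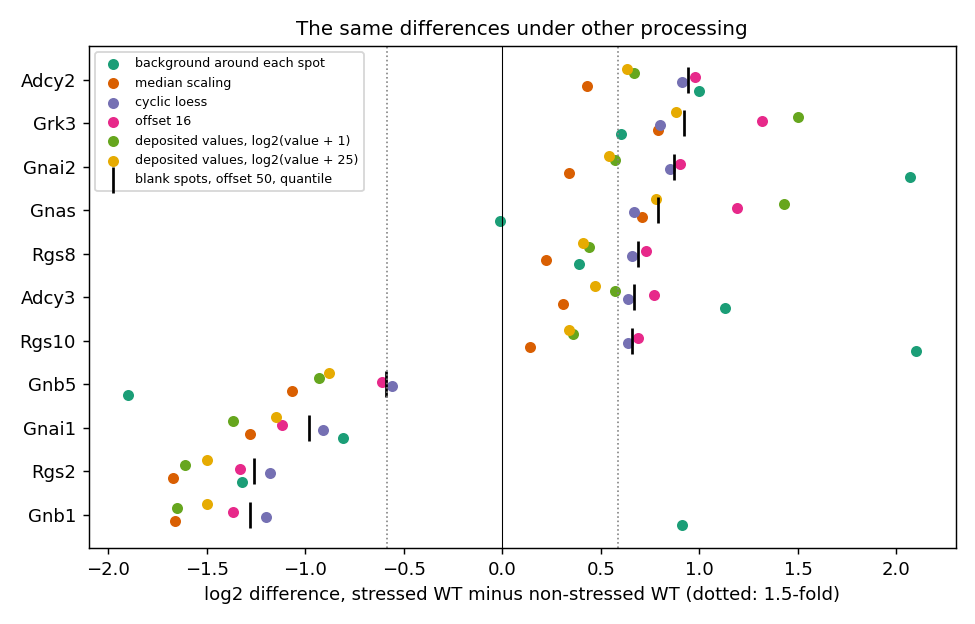
Log2 difference of stressed WT from non-stressed WT for the 11 members past 1.5-fold, with the black bar at the value used in the text and 1 coloured point for each other way of computing it (dotted lines at 1.5-fold). Rgs2, Gnai1 and Grk3 stay past 1.5-fold in every computation shown, and Gnb1 and Gnas have a point on the other side of 0 under local background correction.

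Each knockout was set against non-stressed WT, which asks how the stressed knockout tissue differs from unstressed wild-type tissue. In D2R-KO none of 75 members was 1.5-fold higher, where 0.609% of all genes were, and none was 1.5-fold lower, where 1.51% were (2.12% in either direction). No member passed 2-fold, where 0.449% of all genes did. The median was 0.00 for the members and 0.01 for all genes. The extremes were Gng10 (514.7, 526.5, 383.4, 508.5) at -0.54 and Gng11 (557.2, 575.7, 935.1, 940.5) at 0.53. Gnb1 at -0.47, Gng13 (354.2, 363.7, 278.7, 280.4) at -0.44 and Arrb1 at 0.43 came next after Rgs11. Local background correction reversed Gng10 to 1.13 and Gnb1 to 1.38.

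In D2LR-KO 1 of 75 members was 1.5-fold higher than in non-stressed WT, where 0.751% of all genes were, and 1 was 1.5-fold lower, where 1.41% were (2.16% in either direction). No member passed 2-fold, where 0.424% of all genes did. The higher one was Gng11, a farnesylated Ggamma subunit, by 1.59-fold, and the lower one Gnai1, by 1.51-fold. Median scaling put Gng11 at 0.49 and left 0 higher members, where 0.347% of all genes were higher. It left 5 lower, where 2.9% of all genes were, namely Gnai1, Gnao1, Gnaz, Adcy9 and Rgs16. On the main scale the last 4 stood just short of 1.5-fold, with Gnao1 at -0.44, Gnaz at -0.46, Adcy9 at -0.47 and Rgs16 at -0.53. For Gng11 the 2 knockout arrays read 935.1 and 940.5 and the WT arrays 557.2 and 575.7. On the normalized scale the knockouts exceeded stressed WT by only 0.18 and 0.32. The share of all genes with both knockouts on 1 side of both WT arrays was not counted. That order, given here also for Gnaq, Rgs6, Rgs16 and Gng13, is therefore not read as a genotype difference. Each of the 2 comparisons against non-stressed WT uses the same control array.

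Kcnj8 and Rgs5, both known from pericytes and vascular smooth muscle, were highest in D2LR-KO. Kcnj8, the pore of a vascular ATP-sensitive potassium channel, had 42.8, 30.8, 52.9 and 73.7, and Rgs5 had 55.7, 44.3, 45.6 and 80.7. They exceeded non-stressed WT by 0.52 and 0.38 on the log2 scale. Contractile smooth muscle markers were high there too. Of 8 pericyte and smooth muscle markers measured, 3 were 1.5-fold higher in D2LR-KO than in non-stressed WT (Acta2 at 1.95, Tagln at 1.63, Myh11 at 0.65) and none lower, and their summed deposited intensity was 1526, 764.2, 1552 and 3482. All 8 were detected, and the pericyte markers Pdgfrb (0.16), Abcc9 (0.09), Notch3 (0.11) and Cspg4 (-0.01) differed little. Of 7 meningeal markers, all detected, 3 were higher in D2LR-KO than in non-stressed WT (Ogn at 1.12, Igf2 at 1.06, Col3a1 at 0.78), with sums of 1115, 582.2, 729.6 and 2122. Among 6 endothelial markers none passed 1.5-fold in that comparison, with sums of 1895, 810.7, 2075 and 2200. The part of vascular and meningeal cells in the Kcnj8, Rgs5 and Gng11 values was not tested.

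Each knockout was also set against stressed WT, which asks what differs with genotype among stressed mice. Both comparisons use the stressed WT array that stood apart, and both share it with the comparison of the WT arrays. In D2R-KO 4 of 75 members were 1.5-fold higher, where 9.42% of all genes were, and 11 were lower, where 8.72% were (18.1% in either direction). The 1 member past 2-fold was Rgs2, against 5.38% of all genes. In D2LR-KO 4 of 74 members were higher, where 8.8% of all genes were, and 11 were lower, where 8.29% were (17.1% in either direction). Past 2-fold there were 2 members, Rgs2 and Adcy2, against 4.57% of all genes. The members' medians were -0.03 and -0.02. The balance depended on scaling, since median scaling gave 9 higher and 2 lower in D2R-KO and 6 and 6 in D2LR-KO. All genes shifted too under that scaling, to 18.5% higher and 3.76% lower in D2R-KO and 12.0% and 4.35% in D2LR-KO. The deposited values with 25 added gave 9 and 2, and 7 and 6, where all genes had 17.7% and 5.26%, and 13.9% and 5.3%. With 1 added they gave 16 and 10, and 15 and 13, where all genes had 27.6% and 19.5%, and 23.9% and 20.2%.

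The higher members in D2R-KO were Rgs2 (2.43-fold), Gnb1 (1.76-fold), Gnai1 (1.63-fold) and Arrb1 (1.52-fold). In D2LR-KO they were Rgs2 (2.17-fold), Gnb1 (1.91-fold), Kcnj8 (1.70-fold) and Gnb5 (1.56-fold). Arrb1, which uncouples receptors from G proteins, had its highest intensity in D2R-KO, 2.81-fold above stressed WT in deposited intensity. Gnai1 was 1.31-fold higher in D2LR-KO than in stressed WT, and Gnb5 1.48-fold higher in D2R-KO.

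The lower members in D2R-KO were led by Adcy2 (1.95-fold), Gng10 (1.86-fold), Gng13 and Gnas (1.73-fold and 1.71-fold) and Grk3 (1.70-fold), with Gnai2, Rgs16, Gng2, Rgs8, Adcy3 and Gnaz between 1.53-fold and 1.63-fold. In D2LR-KO they were led by Adcy2 (2.17-fold), Gnaz (1.89-fold), Grk3 (1.85-fold), Rgs16 (1.83-fold) and Adcy3 (1.79-fold), with Gnao1, Gnas, Gng13, Adcy9, Gng2 and Rgs8 between 1.51-fold and 1.70-fold. Rgs16, an RGS of Galpha i/o and q that is known to follow the circadian clock, was below both WT arrays in both knockouts. Gng2, a widely expressed brain Ggamma with 224.3, 238.1, 187.7 and 183.6, was 1.61-fold and 1.54-fold lower, and for Gng13 too both knockouts lay below both WT arrays. Gnao1 and Adcy9 passed 1.5-fold in D2LR-KO, at 1.70-fold and 1.55-fold, and not in D2R-KO, where they differed by 1.22-fold and 1.14-fold. Rgs2 and Grk3 stayed past 1.5-fold in both comparisons under each of 7 other computations, and Gnaz, Gnb5, Rgs16, Adcy2 and Adcy3 did so in D2LR-KO. In the same arrays, markers of cerebral cortex and hippocampus neurons summed to 6686, 7501, 2358 and 2441, with 6 of 10 at least 1.5-fold lower than stressed WT in each knockout, none higher and none undetected. Their part in the lower values of Gng2, Gng13, Gnaz, Gnao1 and Rgs16 was not tested.

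**Figure D4:**
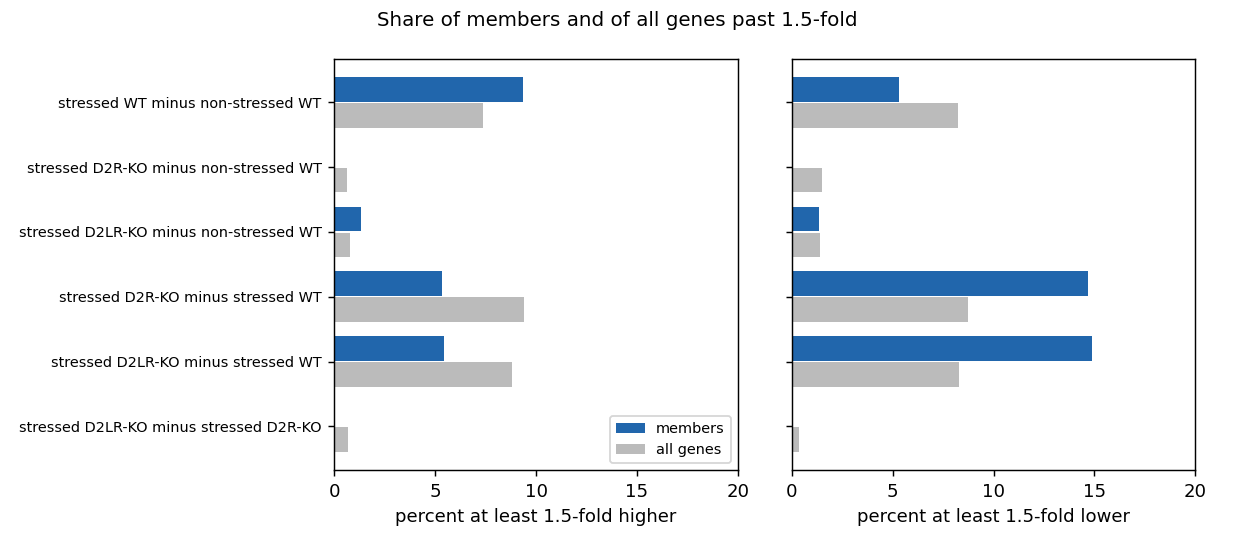
Percent of members (blue) and of all genes compared (grey) at least 1.5-fold higher (left) or lower (right) in each of the 6 comparisons. The blue and grey bars are of like size for the WT arrays, and both are near 0 for the knockouts against non-stressed WT. Against stressed WT the members have 14.7% and 14.9% lower, where all genes have 8.72% and 8.29%. Median scaling turns the members to more higher than lower for D2R-KO and to 6 of each for D2LR-KO, with 3.76% and 4.35% of all genes lower.

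D2LR-KO was set against D2R-KO to ask whether loss of the long form alone differs from loss of the whole receptor. None of 75 members differed 1.5-fold in either direction, where 1.02% of all genes did (0.686% higher, 0.333% lower), and none passed 2-fold, where 0.199% did. The members' median was -0.02. Rgs5 came closest, just inside the threshold at 0.58, followed by Rgs4 at 0.52, Gng10 at 0.49, Gnao1 at -0.47 and Adcy9 at -0.44. Median scaling brought 3 members past 1.5-fold, all of them lower in D2LR-KO, where 2.02% of all genes were lower and 0.417% higher.

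Of 12 measured receptors for amines that couple to Galpha i/o, 11 detected on all arrays and Chrm4 on 2, none passed 1.5-fold against non-stressed WT in any stressed group. Htr1a, the serotonin 1A receptor, had 28.7, 22.6, 33.7 and 21.7, and its differences from non-stressed WT were -0.16, 0.11 and -0.18. Drd2, the targeted gene, had 26.8, 43.8, 20.9 and 48.3. On the log2 scale it was 0.60 lower in D2R-KO than in stressed WT, and 0.64 higher in D2LR-KO than in D2R-KO. It was lowest in D2R-KO but still detected, and the part of the transcript its probe reads is not known here, so this checks the labels little. Chrm2, a muscarinic receptor, had 67.9, 45.7, 97.2 and 109.3 and was higher than in stressed WT by 0.62 in D2R-KO and 0.82 in D2LR-KO.

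Further effectors and regulators of the cascade came from a list outside the symbol rule. Of 46 measured, 2 were 1.5-fold higher and 8 lower in stressed than in non-stressed WT, where 7.35% and 8.21% of all genes were, with a median of -0.11. In D2R-KO 6 were lower than in non-stressed WT and none higher, where 1.51% and 0.609% of all genes were. In D2LR-KO 3 were lower and none higher, where 1.41% and 0.751% were. In these 2 comparisons 7 and 6 of the 10 cerebral cortex and hippocampus markers were 1.5-fold lower and none higher. The part of such tissue in the effector values was not tested. Pde1a, a calcium-dependent phosphodiesterase, had 1072.9, 486.2, 284.7 and 478.5, at -1.94 in D2R-KO and -1.15 in D2LR-KO. Gprasp1, which sorts receptors to lysosomes, had 128.0, 33.5, 46.2 and 41.4, so that every stressed array was lower, by 1.30, 1.08 and 1.14 on the log2 scale. Prkacb, a catalytic subunit of protein kinase A, had 292.2, 168.6, 153.1 and 134.9. It too read below non-stressed WT on each stressed array, at -0.48 (under 1.5-fold), -0.91 and -0.98. The genes of the Galpha q route differed among themselves. Plcb4, Itpr1 and Prkcb were low in stressed WT only, whereas Plcb1 (34.1, 70.0, 37.7, 32.3) was high there, by 0.77. Prkca (57.5, 28.2, 23.9, 29.1) read below non-stressed WT on every stressed array, past 1.5-fold in D2R-KO only. Plcb2 and Plcb3 differed between the WT arrays by -0.07 and 0.02. Plcb4 had 169.6, 76.7, 252.6 and 243.0, Itpr1 133.8, 52.9, 173.1 and 164.9, and Prkcb 749.7, 324.3, 1072.0 and 822.8. Pde1b had 361.9, 494.8, 244.3 and 292.0 and was lower than in stressed WT by 1.38 in D2R-KO and 1.05 in D2LR-KO on the log2 scale.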

How the data were processed

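Total RNA was amplified to Cy5-labelled aRNA and hybridised to Toray arrays, per the labels' protocols. Per the file headers, each scanner file holds the median intensity of every spot and of its surroundings at 635 nm from 3 scans at different gain; from the values, no background was subtracted. The sources used here do not say how those scans were merged. The authors' deposited table holds intensity on a linear scale which, from the values, is each array's spot median less a fixed amount, divided by a fixed factor. Spot medians were background-corrected with limma 3.58.1 (nec, 2736 blank spots as negative controls, offset 50) in R 4.3.3, put on a log2 scale and quantile-normalized over 4 arrays. A spot was detected when it exceeded the blank spots' mean by over 2 SD. The probe table lists 16631 probes, each with 1 gene symbol and 0 with several; other probes are unnamed here. Symbols were updated through RefSeq, and the brightest probe per gene was kept, leaving 16383 genes. Between 21363 and 21496 of 23465 gene spots per array were detected. Further steps used Python 3.11.15. Only the main background correction and normalization were tested on simulated data, made from 1 array with a fixed scale factor per copy. Those data held no shift of bright genes such as stressed WT showed. Members, lists and thresholds were chosen with earlier results of these data known. Galpha i/o and s/olf subunits, GIRK channels, cyclases, receptor kinases and arrestins are named whatever their values, other members at 1.5-fold, genes outside the symbol rule at 2-fold, and Htr1a, Drd2 and Tph2 always. Other named genes below those sizes were chosen after their values were seen, and marker genes are given mostly by counts and sums. Alternatives were 7 other computations of the values and 3 other filters on dim probes.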

Additional observations from a re-analysis of the deposited data

How the results depend on the processing

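With 1 array per group no replicate could be left out, and no paired analysis was possible because each group has 1 array. Cyclic loess, the mean of a gene's probes, and the filters (detected on both arrays, no detection filter, brighter array at or above the median signal) kept the count of members past 1.5-fold within 1.5 times in the comparisons. The exception was cyclic loess, with 1 member for D2LR-KO against D2R-KO in place of 0, where 0.756% of all genes were higher and 0.346% lower. The mean of a gene's probes could not move these counts, as 78 probes served 78 members. Dropping the detection filter added only members detected on neither array, whose signals lie near the blank spots, so it could hardly move them either. The background around each spot, which followed the spot itself (r = 0.876 to 0.958 across probes), gave 21 members in place of 11 for stressed against non-stressed WT, 13 in place of 0 (D2R-KO) and 9 in place of 2 (D2LR-KO) when non-stressed WT was the control, and 11 in place of 0 between the knockouts. With that background, all genes had 9.91% higher and 9.99% lower between the WT arrays. Against non-stressed WT they had 7.02% and 5.07% in D2R-KO and 6.95% and 4.82% in D2LR-KO, and between the knockouts 3.02% and 2.51%. The same background reversed Gnb1 (0.91) and Gnas (-0.01) between the WT arrays. Median scaling gave 1 and 5 for the knockouts against non-stressed WT and 3 between them. All genes had 0.865% higher and 1.58% lower in D2R-KO, 0.347% and 2.9% in D2LR-KO, and 0.417% and 2.02% between the knockouts. An offset of 16 gave 2 and 5 for the knockouts against non-stressed WT, 25 in place of 15 for D2LR-KO against stressed WT, and 1 between the knockouts. All genes then had 1.39% higher and 2.74% lower in D2R-KO and 1.63% and 2.38% in D2LR-KO against non-stressed WT. They had 13.7% and 12.8% in D2LR-KO against stressed WT, and 1.28% and 0.628% between the knockouts. The deposited values with 1 added gave 17 for the WT arrays, 5 and 11 for the knockouts against non-stressed WT, 26 and 28 against stressed WT, and 7 between them. Against non-stressed WT, all genes then had 5.59% higher and 4.86% lower in D2R-KO and 3.9% and 5.22% in D2LR-KO. Between the knockouts they had 2.82% and 3.23%. With 25 added the counts were 7 for the WT arrays, 2 for D2R-KO against non-stressed WT and 1 between the knockouts. All genes had 1.67% and 1.33% in that D2R-KO comparison and 0.629% and 0.996% between the knockouts. The other shares of all genes are given above. The cause of these moves was not tested. Member medians moved most under the filter on the brighter array, which changes the members that enter. They went from 0.04 (75 members) to 0.16 (40) between the WT arrays and from -0.03 (75) to -0.20 (43) for D2R-KO against stressed WT. The medians of all genes under that filter were 0.00 and 0.01. Outside Gnb1 and Gnas, the members past 1.5-fold kept their direction in all 7 other computations, of which the mean of a gene's probes could not differ for members.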
